A study of Mus musculus with 3 samples.

Results

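The genes described here are 9 forkhead genes with known roles in the palate or face: Foxf1, Foxf2, Foxd1, Foxd2, Foxc1, Foxc2, Foxp1, Foxp2 and Foxl2. They were listed by name, with earlier results of these data known, and all 9 were found among the 32285 genes of the count matrices. Their levels were followed across cell types and stages in single cells of the mouse palatal shelves, the paired outgrowths whose fusion closes the roof of the mouth. The tissue came from wild-type C57BL/6J embryos of 3 stages, named by days of gestation: E13.5, then E14.5, then E15.5. Values given in threes follow this order. There was 1 library per stage, and each was made from 3 embryos whose tissue was combined before dissociation with TrypLE and fixation in methanol. The counts are of unique molecular identifiers (UMIs), that is, of captured RNA molecules. No sample had a treatment or a mutation.

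Forkhead factors bind DNA through a winged-helix domain and are named in families by letter. Foxf and Foxd genes are known in the facial mesenchyme as targets of hedgehog signalling from the neighbouring epithelium, Foxc genes in the mesenchyme of the eye and skull, in cartilage and in vessels, and Foxl2 in the eyelid and ovary. Foxp factors act mainly as repressors, pair with each other through a leucine zipper, and are known in neurons, lung and jaw.

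The 3 libraries held 4236, 2079 and 3113 barcodes, of which 3583, 1750 and 2584 were kept as cells, with medians of 1614 to 1735 UMIs per barcode. In all, 5 barcodes occurred in more than 1 library. Cells fell into 25 clusters, 24 of which were named by marker genes and are written as "-like" classes. The mesenchymal-like, osteogenic-like and chondrogenic-like classes together are called the mesenchymal lineage. This lineage made up 18.4%, 69.1% and 68.3% of the cells in stage order. The E13.5 library departed from its palate label: 48.1% of its cells were neuronal-like and 16.4% neural progenitor-like. Because each stage is 1 library, no difference between stages has a replicate check, and stage and library cannot be told apart. Levels are UMIs per 1000000 UMIs of the cells named (CPM), and the ranges in parentheses are exact 95% intervals that cover counting error only. A ratio in a class can come from more cells with the gene or from more RNA per cell, and these were not separated.

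Promoter windows of 300 bases around the annotated start were found for 6 of the 9 genes in RefSeq (GRCm38.p6), 250 before and 50 after it. Of these, 3 are printed, 5′ to 3′, with CG dinucleotides in capitals. Foxf2 and Foxc1 are shown because they are neighbours on chromosome 13 whose levels moved in opposite directions in the lineage, and Foxl2 because 204 bases of its window are shared with that of its antisense gene Foxl2os. The windows are chr13:31625566-31625865 for Foxf2, chr13:31806396-31806695 for Foxc1 and chr9:98955357-98955656 for Foxl2, all on the plus strand.

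Foxf2: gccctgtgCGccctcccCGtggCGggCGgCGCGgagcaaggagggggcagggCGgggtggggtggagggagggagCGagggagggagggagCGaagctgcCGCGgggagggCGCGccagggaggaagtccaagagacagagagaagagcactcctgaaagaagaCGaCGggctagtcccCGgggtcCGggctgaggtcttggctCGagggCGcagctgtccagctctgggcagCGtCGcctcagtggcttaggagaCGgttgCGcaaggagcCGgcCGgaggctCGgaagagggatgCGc
Foxc1: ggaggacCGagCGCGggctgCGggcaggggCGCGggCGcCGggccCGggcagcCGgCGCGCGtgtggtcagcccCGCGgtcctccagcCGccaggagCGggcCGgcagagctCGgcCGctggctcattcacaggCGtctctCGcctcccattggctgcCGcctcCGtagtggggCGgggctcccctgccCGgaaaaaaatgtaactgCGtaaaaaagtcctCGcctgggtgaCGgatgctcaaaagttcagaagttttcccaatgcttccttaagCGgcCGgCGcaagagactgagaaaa
Foxl2: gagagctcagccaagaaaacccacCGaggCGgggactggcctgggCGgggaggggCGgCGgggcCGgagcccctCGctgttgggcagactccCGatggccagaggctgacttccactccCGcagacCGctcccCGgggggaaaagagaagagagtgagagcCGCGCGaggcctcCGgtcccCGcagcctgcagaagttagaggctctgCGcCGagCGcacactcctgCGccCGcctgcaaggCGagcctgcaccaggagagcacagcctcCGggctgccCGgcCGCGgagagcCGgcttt

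These 3 windows held 27, 32 and 27 CG dinucleotides, against a median of 7 over all 32851 windows of the table. The Foxd2 window held 26 and that of Foxd1 15, while the 3 windows of Foxp1, which has several annotated starts, held 13, 5 and 44. Both strands were searched for the GLI motif TGGGTGGTC, its core GGGTGGTC (which lies inside it), the forkhead motif TGTTTAC and the TATA box TATAAA. None of the 8 windows of these genes held any of them, where 0.253%, 0.807%, 3.65% and 13.6% of all windows did. This says only that these letters are not in these windows.

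Of the 9 genes, 7 had their highest level over the named classes in the mesenchymal lineage when cells of all libraries were summed, where 18.5% of 14093 genes with at least 50 UMIs did; nothing is read from this for a list not chosen independently of these data. Foxf1 (28.7 CPM), Foxf2 (22.4 CPM) and Foxd1 (38.8 CPM) were highest in mesenchymal-like cells. Foxc1 (42.8 CPM), Foxc2 (31.7 CPM) and Foxp2 (783 CPM) were highest in chondrogenic-like cells, and Foxl2 (7.83 CPM, 12 UMIs) in osteogenic-like cells. Foxp1 was highest in olfactory neuron-like cells at 1401 CPM. Foxd2 had its highest sum in glial-like cells, on 2 UMIs. Foxf2 kept its class under every clustering tried, and under a gate on each cell, described below, it was highest in the lineage. The class of the others moved with the settings. Foxf1 was highest in osteogenic-like cells at a coarser clustering (31.1 CPM) and in cells with at least 1000 genes (38.2 CPM), and Foxd1 in chondrogenic-like cells at the coarser clustering (37.9 CPM). The coarser classes were larger: 814 cells against 228 for chondrogenic-like and 898 against 545 for osteogenic-like, so the same name covers other cells there. The gate on each cell pooled mesenchymal, osteogenic and chondrogenic markers, so it had no separate class inside the lineage. Under it, Foxp1 was highest in epithelial-like cells (829 CPM) and Foxp2 in the pooled lineage (428 CPM). Foxc1 (34.1 CPM) and Foxc2 (22.8 CPM) were then highest in endothelial-like cells.

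The E13.5 library bears on this order, since it holds most chondrogenic-like cells. Without it, 5 of the 9 genes kept a lineage class on top: Foxc1 (33.5 CPM) and Foxc2 (18.3 CPM) were then highest in endothelial-like cells, and Foxp2 (729 CPM) in osteogenic-like cells. When each library's level was set beside the others, the range of the highest class lay wholly above that of the next for Foxp1. It did so for Foxd1 only against muscle-like cells, which had 1 library (28.4 CPM): the range over mesenchymal-like libraries, 32.6 to 50.6 CPM, overlapped that of osteogenic-like ones, 11.7 to 35.5 CPM. For the other 7 genes, the highest class and the next overlapped in their ranges over the libraries.

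**Figure D1:**
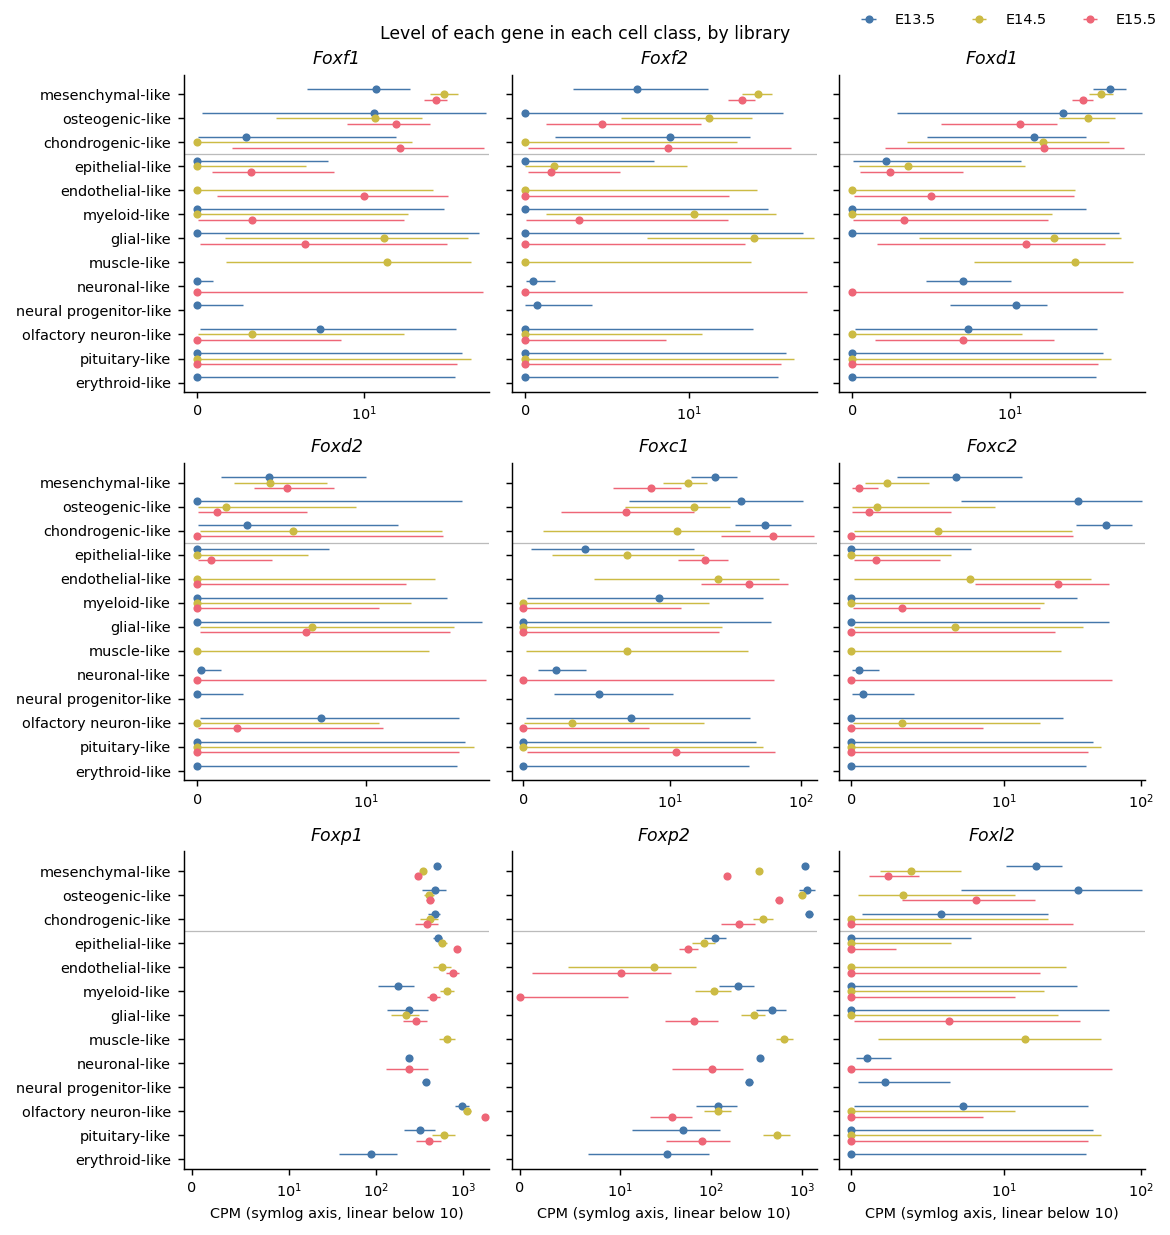
Level of each gene in each cell class (CPM, symmetric log axis that is linear below 10), with points for the 3 libraries and lines for exact 95% counting intervals; classes with under 20 cells in a library have no point for it. Foxf1 and Foxf2 stood highest in mesenchymal-like cells of the later libraries, Foxc2 in chondrogenic-like cells at E13.5, and Foxp1 was found in every class shown.

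Foxf1 (ENSMUSG00000042812, chr8:121084386-121088144) and Foxf2 (ENSMUSG00000038402, chr13:31625816-31631403) encode factors of mesenchyme, and mice without Foxf2 have a cleft palate. In mesenchymal-like cells Foxf1 stood at 12.0, 34.2 and 30.1 CPM. Epithelial-like cells gave 0, 0 and 4 UMIs of Foxf1. The count in mesenchymal-like cells at E13.5 was 14 UMIs, and the gene was sparse in epithelium. Foxf2 had 6.86, 29.1 and 22.6 CPM in mesenchymal-like cells. Glial-like cells gave 0, 4 and 0 UMIs of Foxf2.

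Over the whole lineage Foxf1 measured 10.0 CPM (5.74 to 16.3, 16 UMIs), 28.4 CPM (22.9 to 34.7, 94 UMIs) and 27.5 CPM (23.2 to 32.5, 140 UMIs). The E13.5 interval lay below those of both later libraries, which overlapped each other. The E14.5/E13.5 ratio was 2.82 (1.65 to 5.14) over the lineage, but with the mix of clusters held fixed the log2 ratio was -0.017, and that of E15.5/E13.5 turned to -0.26. The fixed mix leaves out cluster 11, described below, which holds 31.2% of the lineage's Foxf1 UMIs, and covers 76.9% and 74.1% of the later lineage cells. Its E13.5 value leans on 5 UMIs of Foxf1 in cluster 10. Lineage cells with a Foxf1 UMI, after each cell was thinned to 1500 UMIs, made up 1.00%, 4.44% and 4.51% of the 400, 720 and 1108 cells deep enough (2.28%, 6.69% and 6.97% of all lineage cells unthinned). Myeloid-like cells, which should lack the gene, gave 0 of 130, which allows a share of up to 2.31%, at a median of 1769 UMIs per cell against 1873, 1812 and 2014.5 in the lineage. The E13.5 share is therefore under that limit.

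Foxf2 followed the same order of stages in the lineage: 6.91 CPM (3.45 to 12.4, 11 UMIs), 24.7 CPM (19.7 to 30.7, 82 UMIs) and 19.3 CPM (15.6 to 23.5, 98 UMIs). E13.5 was again below both later libraries, with a ratio of 3.58 (1.90 to 7.45) for E14.5/E13.5 and 2.79 (1.49 to 5.77) for E15.5/E13.5. With the cluster mix fixed, the E15.5/E13.5 log2 ratio was 1.11, against 1.36 otherwise. The thinned shares of cells with a Foxf2 UMI, 1.25%, 3.06% and 2.53%, were close to the 2.31% (3 of 130) of myeloid-like cells and are not read as expression per cell.

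Foxd1 (ENSMUSG00000078302, chr13:98354242-98359305), known in kidney stroma and the retina as well as the face, had 41.5 CPM (32.1 to 52.7, 66 UMIs) in the lineage, then 40.7 CPM (34.1 to 48.2, 135 UMIs) and 28.7 CPM (24.2 to 33.8, 146 UMIs). The first 2 libraries overlapped, and the E15.5/E14.5 ratio was 0.705 (0.554 to 0.898). The sign against E13.5 depended on the cells taken: without cluster 14, described below, the E14.5/E13.5 log2 ratio was 0.90 instead of -0.02, and that of E15.5 to E13.5 was 0.44 instead of -0.51. Foxd1 was also found in the neural cells of E13.5, at 11.1 CPM in neural progenitor-like and 7.04 CPM in neuronal-like cells. Its close relative Foxd2 (ENSMUSG00000055210, chr4:114906282-114908873) was near the limit of detection, with 6, 13 and 23 lineage UMIs, or 3.77, 3.92 and 4.52 CPM. Those 3 intervals overlapped, and no change in Foxd2 was detectable at this depth.

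Foxc1 (ENSMUSG00000050295, chr13:31806633-31812476), a gene of the eye's anterior segment, the skull and vessels, fell in the lineage from 29.5 CPM (21.7 to 39.3, 47 UMIs) to 13.9 CPM (10.2 to 18.5, 46 UMIs) by E14.5, and stood at 9.64 CPM (7.13 to 12.7, 49 UMIs) thereafter. The E14.5/E13.5 ratio was 0.470 (0.306 to 0.721) and that of E15.5 to E13.5 0.326 (0.214 to 0.498). Summed over all cells of each library the sign turned, with log2 ratios of 0.28 and 0.21. In chondrogenic-like cells Foxc1 did not follow the lineage: it had 52.9 CPM (18 UMIs), 11.4 CPM (2 UMIs) and 61.0 CPM (7 UMIs). Outside the lineage it was found in endothelial-like cells, at 23.3 CPM (3 UMIs) and 40.1 CPM (8 UMIs) in the later libraries, and in epithelial-like cells, at 4.25, 7.11 and 18.4 CPM (2, 4 and 23 UMIs). The epithelial-like class also changed in make-up: cluster 0 held 86% of it at E13.5 and 40.8% at E15.5, and cluster 21 14% and 54.5%. In cluster 0 Foxc1 had 2, 1 and 5 UMIs, whose intervals overlapped, and in cluster 21 it had 0, 3 and 17 UMIs, whose intervals overlapped as well.

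Foxc2 (ENSMUSG00000046714, chr8:121116171-121118895), which is needed for lymphatic valves and for closure of the palate, had 18.8 CPM (12.7 to 26.9, 30 UMIs) in the lineage, then 2.41 CPM (1.04 to 4.76, 8 UMIs) and 0.590 CPM (0.122 to 1.72, 3 UMIs). Those intervals separated E13.5 from both later libraries, with a ratio of 0.128 (0.051 to 0.286) for E14.5/E13.5 and 0.0313 (0.00611 to 0.101) for E15.5/E13.5. The E15.5/E14.5 ratio, 0.244 (0.0418 to 1.02), has an interval that includes no change. Of the 30 UMIs at E13.5, 19 were in chondrogenic-like cells (55.8 CPM). That class then had 1 UMI and then 0 at E15.5, where the level was at least 2.14-fold lower than at E13.5. Chondrogenic-like cells also made up less of the lineage with time, 19.3%, 5.87% and 1.70%. Endothelial-like cells had 1 and 5 UMIs of Foxc2 in the later libraries, or 7.78 and 25.1 CPM.

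Foxp2 (ENSMUSG00000029563, chr6:14901349-15441977), best known for its part in speech and in circuits of the brain, was past 2-fold lower at both steps, though with the cluster mix held fixed the log2 ratios were -0.80 and -0.93, within 2-fold. The first step was also within 2-fold with a marker gate on each cell (-0.94) and over all cells of each library (-0.43). In the lineage it fell from 1113 CPM (1062 to 1166, 1772 UMIs) to 456 CPM (433 to 479, 1510 UMIs) and then 218 CPM (205 to 231, 1108 UMIs). No interval overlapped another, and the ratios were 0.409 (0.382 to 0.439), 0.478 (0.442 to 0.517) and, over both steps, 0.196 (0.181 to 0.211). Under every alternative that was run the E15.5/E13.5 log2 ratio kept its sign, between -2.86 and -1.59. The share of thinned lineage cells with a Foxp2 UMI was 52.5%, 22.9% and 16.4% (57.3%, 27.4% and 21.9% unthinned), where myeloid-like cells gave 4.76%, 4.55% and 0% (1 of 21, 2 of 44 and 0 of 65 cells; 12.1%, 5.13% and 0% unthinned) at medians of 2060, 1776 and 1661.5 UMIs.

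The decline of Foxp2 differed in size between lineage classes. Mesenchymal-like cells had 1088, 338 and 149 CPM, chondrogenic-like cells 1190, 375 and 201 CPM, and osteogenic-like cells 1145, 985 and 552 CPM. The classes started at like levels, and in both later libraries osteogenic-like cells were the highest of the 3. Elsewhere Foxp2 was at 639 CPM in muscle-like cells at E14.5, at 461, 293 and 64.4 CPM in glial-like cells and at 111, 83.5 and 56.1 CPM in epithelial-like cells. Neuronal-like cells of E13.5 had 347 CPM and neural progenitor-like cells 260 CPM, both under the lineage of that library. Myeloid-like cells had 195, 107 and 0 CPM, at least 19.6-fold lower at E15.5 than at E13.5. In those cells the summed level of 8 neuronal markers was 1390, 123 and 142 CPM, and in the lineage 428, 337 and 271 CPM, against 4554 CPM in neuronal-like cells of E13.5. The part of this RNA in the Foxp2 levels was not tested.

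Foxp1 (ENSMUSG00000030067, chr6:98925338-99522721), a partner of Foxp2 in dimers, was found in every class and so has no class that serves as a background. In the lineage it had 494 CPM (460 to 530), 358 CPM (338 to 379) and 325 CPM (309 to 341). E13.5 was highest, but the E15.5/E13.5 ratio, 0.657 (0.603 to 0.716), was within 2-fold. Other classes went the opposite way: olfactory neuron-like cells had 963, 1092 and 1759 CPM and epithelial-like cells 506, 576 and 843 CPM. In epithelial cluster 0 alone Foxp1 had 454, 528 and 515 CPM, and in cluster 21 743, 723 and 1222 CPM. Endothelial-like cells had 568 and 753 CPM in the later libraries. Summed over all cells of each library, Foxp1 had a log2 ratio of 0.55 for E15.5/E13.5 instead of -0.60. Thinned shares of lineage cells with a Foxp1 UMI were 39.5%, 27.9% and 32.8%, beside 42.3% of myeloid-like cells.

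Foxl2 (ENSMUSG00000050397, chr9:98955288-98958543) was sparse, with 25, 12 and 17 lineage UMIs, or 15.7 CPM (10.2 to 23.2), 3.62 CPM (1.87 to 6.32) and 3.34 CPM (1.95 to 5.35). Only E13.5 stood apart, with a ratio of 0.231 (0.106 to 0.476) for E14.5/E13.5 and 0.213 (0.108 to 0.410) for E15.5/E13.5. No UMI of Foxl2 was seen in epithelial-like, endothelial-like, myeloid-like or pituitary-like cells of any library. Over all libraries, 3 counts amount to 1.31 CPM in epithelial-like cells, but to 8.46 CPM in endothelial-like cells, above the later lineage levels. Pituitary-like cells held fewer UMIs in all than endothelial-like ones (81602, 71782 and 88877), so absence there is not shown. Its antisense neighbour Foxl2os had 14, 2 and 12 lineage UMIs. Their annotated spans overlap by 12 bases on opposite strands, and since the sources used here do not say whether counting used strand, their reads may not be told apart.

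**Figure D2:**
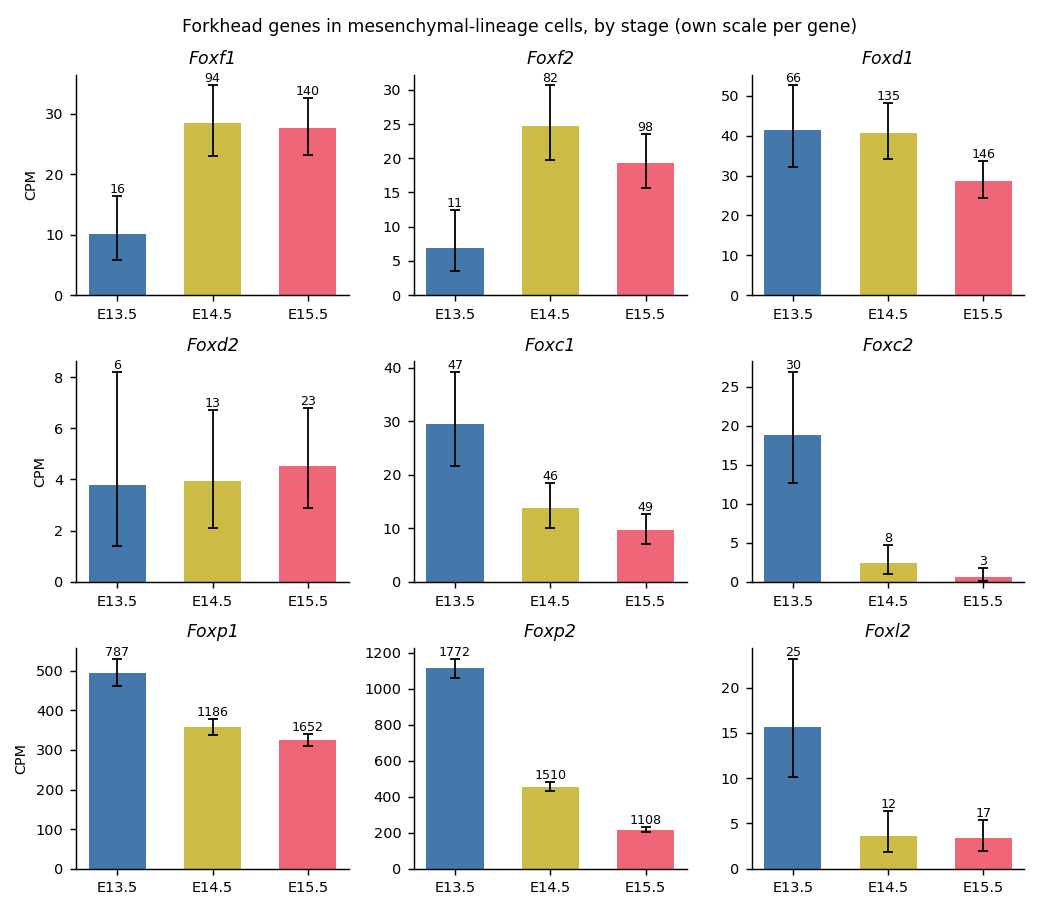
Level of each gene in all mesenchymal-lineage cells (CPM, own scale per gene, bars from 0), with exact 95% counting intervals and the number of UMIs above each bar; there is 1 library per stage. Foxf1 and Foxf2 were lowest at E13.5, and Foxc1, Foxc2, Foxp1, Foxp2 and Foxl2 highest there.

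Across the stages the lineage comparison was read on log2(CPM + 1) over 11538 genes with a mean of at least 5 CPM, with a change of at least 2-fold as the mark, since no test is possible. Foxd2 was under this mean, and 8 of the 9 genes were compared. From E13.5 to E14.5, 6 of the 8 were past 2-fold, where 11.5% of all genes were: Foxf1 and Foxf2 higher (8.93% of all genes) and Foxc1, Foxc2, Foxp2 and Foxl2 lower (2.6% of all genes). From E14.5 to E15.5 there were 2, Foxp2 and, on 3 against 8 UMIs, Foxc2, both lower, against 2.28% in either direction and 1.35% lower. Over the whole span, E15.5 against E13.5, the same 6 as in the first step were past 2-fold in the same directions, against 14.9% in all, 10.6% higher and 4.33% lower. Since the genes were not chosen independently of these data, nothing is read from their share against the background. The median log2 ratio of the 8 was -0.75, -0.41 and -1.06 for these comparisons, beside 0.03, -0.01 and 0.01 over all genes.

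Most of the distance lay between E13.5 and the other libraries, and the cells of the lineage differed there too. Cluster 14, a mesenchymal-like cluster with leading genes that include Ccl21a, Otor, Rspo2 and Cxcl12, held 49.8%, 8.76% and 5.22% of lineage cells. Since it is mostly of 1 library, it may be that library and not a cell type. With the mix held fixed over the 6 lineage clusters (of 9) that had 20 or more cells per library, 3, 0 and 4 genes were past 2-fold in the 3 comparisons, where 14%, 4.5% and 17.5% of all genes were. The share of lineage UMIs from genes spanning at least 100 kb, as Foxp1 and Foxp2 do, was 21.5%, 28.3% and 30.6%. With levels taken relative to the UMIs of such genes alone, the E15.5 to E13.5 log2 ratio was -2.86 for Foxp2, -1.12 for Foxp1, -1.03 for Foxd1, 0.93 for Foxf1 and 0.95 for Foxf2, so that on this scale Foxp1 and Foxd1 passed 2-fold and Foxf1 and Foxf2 did not.

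The genes differed over the 9 lineage clusters, whose levels are first given with the libraries summed. Such a ranking can follow the libraries that fill a cluster: of 526 cells in cluster 14, 328 came from E13.5, against 10 of 407 in cluster 11 and 1 of 229 in cluster 8. Cluster 11, with leading genes that include Cntn6, Msx1 and Tfap2b, had the highest Foxf1, 69.1 CPM, and held 31.2% of the lineage's Foxf1 UMIs in 11.2% of its cells. Cluster 8, with leading genes that include Cdh20 and Meox2, had the highest Foxf2, 33.8 CPM. Cluster 10, with leading genes that include Pax3 and Gpc5, held 42.9% of the Foxd2 UMIs in 17.4% of cells. At the other end, cluster 14 had the highest Foxp2 (1164 CPM), Foxp1 (633 CPM), Foxd1 (57.7 CPM) and Foxl2 (14.4 CPM), with Foxf1 at 5.40 CPM. The chondrogenic-like cluster 15 had the highest Foxc1 (42.8 CPM) and Foxc2 (31.7 CPM) and held 48.8% of the Foxc2 UMIs in 6.28% of cells. Foxp2 was concentrated in cluster 14 and the osteogenic-like cluster 17, which held 29.4% and 26.3% of its lineage UMIs. The lowest Foxp1 (109 CPM) and Foxp2 (114 CPM) were both in cluster 7, with leading genes that include Ibsp and Mgp. Within single libraries, Foxf1 was highest in cluster 11 at E14.5 (84.0 CPM) and E15.5 (61.6 CPM), and at E13.5, where cluster 11 had too few cells, in cluster 10. Foxp2 was highest in cluster 14 at E13.5 (1397 CPM) and in cluster 17 in both later libraries (985 and 552 CPM), with cluster 14 next (926 and 449 CPM). Foxp1 was highest in cluster 14 in the first 2 libraries and in cluster 8 in the last, and Foxd1 in clusters 14, 16 and 8 in turn. Foxl2 was highest in a different cluster in each library, on 2 to 4 UMIs. Foxf2 was highest in cluster 16 at E13.5 (3 UMIs) and E15.5 (36.4 CPM) and in cluster 7 at E14.5 (37.8 CPM), so in no single library was it highest in cluster 8. Foxc1 was highest in cluster 15 in the first and last libraries and in cluster 14 at E14.5 (53.0 CPM, 11 UMIs), while Foxc2 had 1 UMI in its highest cluster in each later library.

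**Figure D3:**
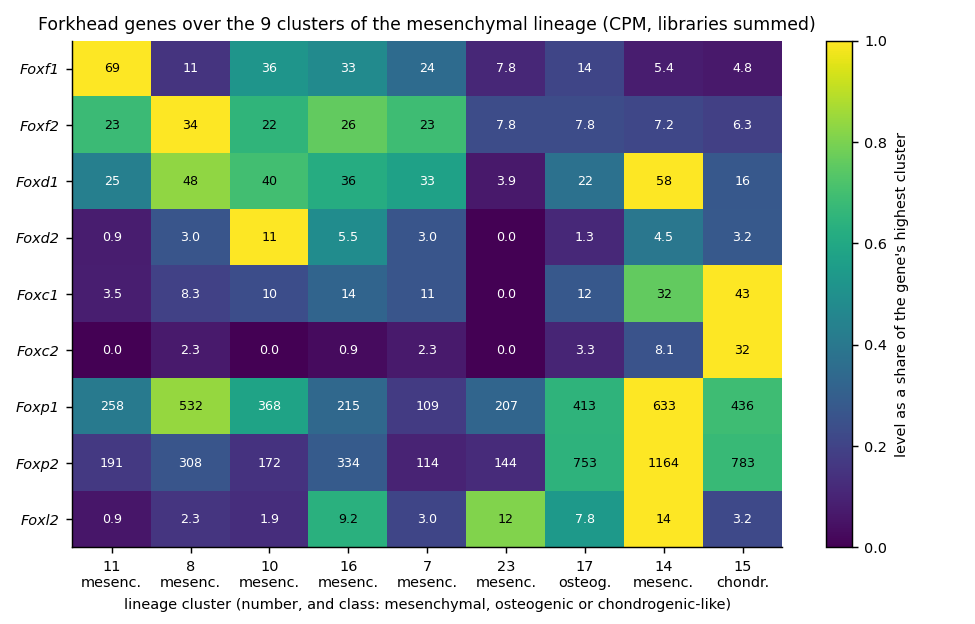
Level of each gene (printed, CPM) in each of the 9 lineage clusters with cells of all libraries summed; colour is the level as a share of that gene's highest cluster. Foxf1 was highest in cluster 11 (69.1 CPM) and Foxp2 in cluster 14 (1164 CPM), where Foxf1 was among the lowest; cluster 14 is mostly of E13.5 and cluster 11 of the later libraries, so cluster and library are mixed in this contrast.

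Within single clusters Foxp2 was lower at E15.5 than at E13.5 in all 6 that could be compared. The ratio was 0.125 (0.0898 to 0.171) in cluster 16, with leading genes that include the cell cycle genes Top2a and Mki67, 0.168 (0.106 to 0.256) in cluster 15, 0.288 (0.185 to 0.456) in cluster 7 and 0.321 (0.251 to 0.406) in cluster 14. It was 0.482 (0.387 to 0.606) in the osteogenic-like cluster 17 and 0.555 (0.316 to 1.06) in cluster 10, whose interval includes no change and whose E13.5 value rests on 13 UMIs. So the lower Foxp2 was not limited to 1 cluster. At E15.5 Foxp1 was below its E13.5 level in each of the 6 as well, with ratios from 0.49 (0.36 to 0.66) in cluster 16 to 0.89 in cluster 7. At E14.5 this did not hold in cluster 14, where Foxp1 had 897 CPM (772 to 1035) against 617 CPM (562 to 677) at E13.5. Foxf1 had no common direction: 9.09 (1.44 to 379) in cluster 16, 1.06 in cluster 7 and 0.303 (0.118 to 0.989) in cluster 10, where 5 UMIs gave 106 CPM at E13.5.

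**Figure D4:**
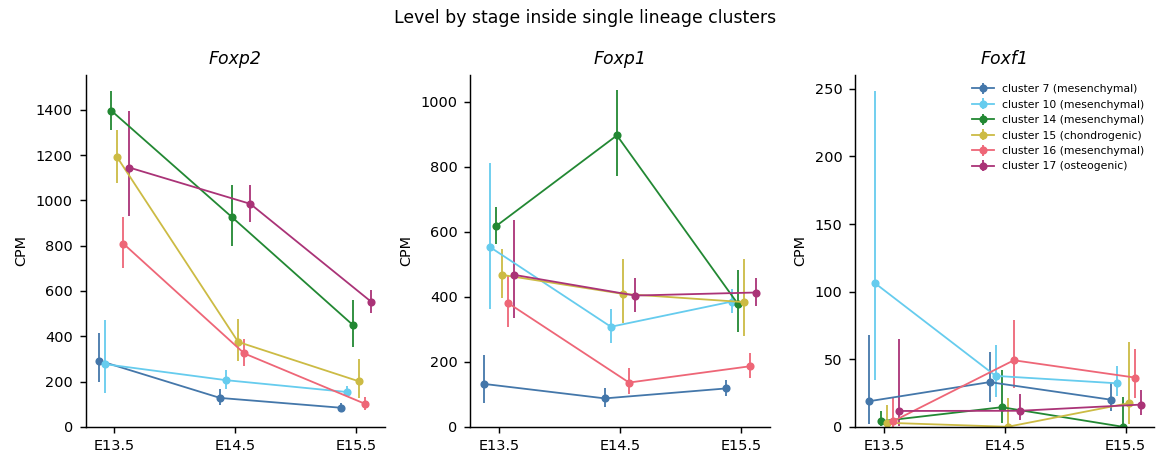
Level of Foxp2, Foxp1 and Foxf1 by stage (CPM, with exact 95% counting intervals) inside the 6 lineage clusters that had 20 or more cells per library. Foxp2 was lower at E15.5 than at E13.5 in all 6, while Foxf1 went both ways.

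Genes of the hedgehog pathway, of palate development and of eye, skull and bone mesenchyme were then compared between lineage cells with and without a UMI of each gene. All cells were thinned to 1500 UMIs, and a partner gene was counted where it had at least 10 UMIs on each side. Cells with a Foxf1 UMI (4, 32 and 50 cells) had more of Tfap2b (2.98-fold, 1.78 to 4.76), a neural crest factor, Lhx6 (2.68-fold, 1.39 to 4.75), Msx1 (2.44-fold, 1.80 to 3.26), a homeobox factor of the anterior palate, and Ptch1 (1.78-fold, 1.31 to 2.38), the hedgehog receptor. Each of these was higher in both later libraries, while the E13.5 side rests on 4 cells, with 1 UMI each of Lhx6 and Ptch1 and 2 of Tfap2b, and is not informative. Over the 8 hedgehog genes countable beside Foxf1, the median ratio was 1.25. In all 3 libraries 3 of them were higher and 2 lower, Fgfr2 (0.738-fold) and Gas1 (0.884-fold). Of 7 countable palate regulators 3 were higher and 2 lower, Pax3 (0.692-fold) and Pax9 (0.872-fold). Smo, the transducer of the signal, was 2.10-fold higher but 0.972-fold when cells were not thinned. Sox5 (0.277-fold) and Sox6 (0.586-fold), factors of the chondrocyte programme, were lower. Runx2, the master factor of bone, was 1.75-fold higher (1.51 to 2.03) and Hhip, a hedgehog inhibitor, 1.84-fold, both higher in each later library and with 0 UMIs in the 4 cells of E13.5; these 2 were named after their values were seen.

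Cells with a Foxp2 UMI (210, 165 and 182 cells) had less Msx1 (0.282-fold, 0.206 to 0.378), Shox2 (0.367-fold), a factor of the anterior palate, and Osr2 (0.505-fold), which promotes palatal growth. They had more Alx4 (1.85-fold), a homeobox gene of the upper face, Col2a1 (1.91-fold), the main cartilage collagen, and Sox6 (1.72-fold). Of 17 countable palate regulators, 2 were higher and 6 lower in all 3 libraries, where 16.7% and 16.8% of 9173 countable genes were. Taking the ratio within each library first gave 0.460-fold for Shox2 and 1.60-fold for Col2a1. Cells with a Foxp1 UMI (158, 201 and 363 cells) had more Boc (1.84-fold) and Cdon (1.47-fold), co-receptors of hedgehog ligands, and less Msx1 (0.573-fold), Osr2 (0.575-fold) and Barx1 (0.612-fold). Long genes took a larger share of UMIs in cells with than without a Foxp2 UMI, 23.4% against 19.7%, 31.3% against 26.7% and 33.6% against 29.3% by stage. The same held for Foxp1, at 23.1% against 20.7%, 32.9% against 25.7% and 34.6% against 27.8%. The part of this in the ratios for both genes was not tested.

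Cells with a Foxc1 UMI were few (18, 11 and 18), or 4.50%, 1.53% and 1.62% of thinned lineage cells (6.23%, 3.31% and 2.61% unthinned). Myeloid-like cells gave 0 of 130, which allows up to 2.31%, so the later shares are not separated from background. The 130 cells pool the libraries, so the limit for E13.5 alone is wider, and the E13.5 share is not shown to lie above it. Cells with a Foxc1 UMI had more Sox9 (2.33-fold, 1.39 to 3.68), the master factor of cartilage, and less Runx2 (0.534-fold). Within mesenchymal-like cells alone the Sox9 ratio was 1.06, so it was seen with chondrogenic-like cells included. Cells with a Foxd1 UMI (19, 34 and 48), or 4.75%, 4.72% and 4.33% (7.60%, 8.51% and 6.46% unthinned) against the same 0 of 130, had more Twist1 (1.55-fold) and less Msx1 (0.491-fold). Of 8 countable hedgehog genes, 0 were higher and 1 was lower beside Foxd1 in all 3 libraries: Smo (0.602-fold, 0.286 to 1.12). Beside Foxf2 (5, 22 and 28 cells), 0 of 8 went either way in all 3.

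**Figure D5:**
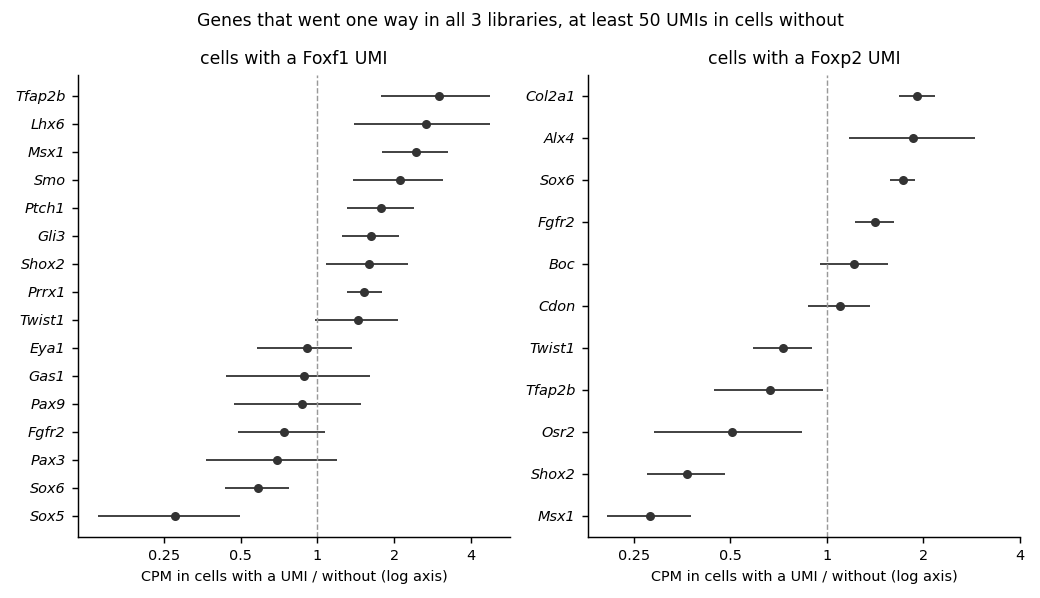
Ratio of CPM in lineage cells with over without a UMI of Foxf1 (left) or Foxp2 (right), log axis, with exact 95% counting intervals, for genes of the 3 lists that went the same way in all libraries and had at least 50 UMIs in the cells without. At E13.5 only 4 cells had a Foxf1 UMI. Msx1 was 2.44-fold higher in cells with Foxf1 and 0.282-fold in cells with Foxp2.

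Pairs of the forkhead genes were counted in the same thinned lineage cells. A Foxp1 UMI was found in 43.6% (39.5 to 47.9) of cells with a Foxp2 UMI and in 28.7% (26.5 to 30.9) of cells without, and by stage in 50% against 27.9%, 41.2% against 24.0% and 38.5% against 31.6%. Both genes are long, and cells with either had the larger long-gene share given above, whose part in this pairing was not tested. A Foxl2 UMI was found in 2.51% of cells with Foxp2 and 0.30% of those without, or 14 and 5 cells. A Foxp2 UMI was found in 11.6% (5.72 to 20.3) of cells with a Foxf1 UMI and in 25.5% (23.7 to 27.4) of cells without. Cells with Foxf1 came mostly from the later libraries, where Foxp2 was lower. By library the shares were 0% (0 of 4 cells) against 53.0%, 18.8% (6 of 32, 7.21 to 36.4) against 23.1% and 8% (4 of 50, 2.22 to 19.2) against 16.8%, and in both later libraries the interval includes the share of the other cells.

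Several of these genes lie in clusters of forkhead genes. On chromosome 8, Foxf1 and Foxc2 are 28.0 kb apart and moved in opposite directions in the lineage, though not with the cluster mix held fixed, where Foxf1 was lower too (-0.017 and -0.26), and Foxl1, 9.05 kb beyond Foxc2, had only 1, 7 and 2 lineage UMIs. Fendrr, a long noncoding RNA that starts 1.28 kb from Foxf1 on the other strand, had 33, 155 and 258 UMIs in the lineage, with a log2 ratio of 1.25 for E15.5/E13.5 beside 1.37 for Foxf1. On chromosome 13, Foxf2 and Foxc1 are 175 kb apart and also moved in opposite directions, while Foxq1, 64.8 kb from Foxf2, stood at 6.91, 7.24 and 7.87 CPM. Foxd2os, 0.384 kb from Foxd2 on the other strand, had 19.5, 20.2 and 19.5 CPM, without a change.

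Over 23 clusters of at least 50 cells, the genes with the likest pattern were listed by Pearson's r of log2(CPM + 1), as a description, since clusters share libraries and depth. For Foxf1 these were Postn (0.92), Olfml1 (0.92) and Twist1 (0.91), and for Foxf2 they were Timp2 (0.93), Fendrr (0.93) and Twist1 (0.92). For Foxd1 they were 9130410C08Rik (0.82), Hhip (0.80) and Fndc3c1 (0.795). Foxc1 had Cox4i2 (0.78), Prr5l (0.78) and Ints3 (0.77), and Foxc2 had Col15a1 (0.76), Gngt2 (0.75) and Mrrf (0.73). For Foxp1 they were Ralgapa2 (0.87), Jarid2 (0.83) and Usp25 (0.80), and for Foxp2 Adra2a (0.84), Adgrb3 (0.815) and Mdga2 (0.805).

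Set beside the related gene lists, the direction of the forkhead set in the lineage was mixed. From E13.5 to E15.5, 3 of 13 hedgehog genes compared were past 2-fold, all higher (10.6% of all genes were higher and 4.33% lower), among them Hhip (2.41 on the log2 scale) and Fgf10 (1.87). This was the direction of Foxf2, and of Foxf1 unless the cluster mix was held fixed (-0.26). Foxd1 had -0.51, a sign that depended on the cells taken. The median over the 13 hedgehog genes was 0.82. Of 18 palate regulators 4 were higher, Shox2 (1.86), Pax3 (1.35), Pax9 (1.29) and Alx4 (1.11). Of 15 eye, skull and bone genes 4 were higher, among them Sp7 (2.94) and Alpl (2.96) of osteoblasts, and 4 lower: Zic1 (-2.81), Col2a1 (-1.90), Sox9 (-1.61) and Sox5 (-1.30). The lower cartilage genes went the direction of Foxc1 and Foxc2. Of 12 other forkhead genes compared, 2 were higher, Foxo1 (25.1 to 62.1 CPM) and Foxo3 (50.9 to 115 CPM), and 1 lower, Foxp4 (69.7 to 29.9 CPM).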

How the data were processed

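Single-cell libraries of palatal shelves were measured at 3 stages. The deposited values are UMI counts per gene and barcode, and per the file headers the authors made them by Cell Ranger 6.1.2. The build is mm10 per the submitters' processing notes. Whether introns or strand were used in counting is not given in the sources used here.

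Barcodes with at least 500 genes and at most 20% mitochondrial UMIs were kept. Doublets were taken as the highest scrublet scores, 0.8% per 1000 barcodes. Counts scaled to 10000 per cell were clustered with scanpy 1.11.5 (2000 variable genes without forkhead genes, 30 components, 15 neighbours, Leiden resolution 1) and named from marker lists. Levels are summed counts per 1000000 (CPM); a pseudocount of 1 CPM entered log2 ratios. Intervals at 95% are exact (Poisson, binomial, Clopper-Pearson; scipy 1.17.1) and, as the median of 1614 to 1735 UMIs per barcode limits them, cover counting error only. The stage ratio and its interval were tested on simulated sums that held counting error only. Gene positions are from GENCODE on GRCm38.

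The genes and lists were chosen with earlier results of these data known. Partner genes were named by a rule: at least 10 UMIs on both sides, the same direction in 3 libraries, at most 3 per direction and list. Alternatives changed resolution, filters, gate, mix, pseudocount and denominator. Those on long-gene and short-gene denominators, and on the order of classes without E13.5, were chosen after seeing the data. Some named items are not reported here.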

Additional observations from a re-analysis of the deposited data

Results flagged for a closer look

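Foxc1 went opposite ways in cell classes between E13.5 and E15.5: it was 4.33-fold in epithelial-like cells, on 2 and 23 UMIs, and 0.392-fold in mesenchymal-like cells. Cluster 0 held 86% of epithelial-like cells at E13.5 and 40.8% at E15.5, with cluster 21 rising from 14% to 54.5%, so the class itself changed in make-up. Foxp1 did the same, at 1.67-fold in epithelial-like, 2.57-fold in myeloid-like and 1.83-fold in olfactory neuron-like cells and 0.605-fold in mesenchymal-like cells. These differences between classes were not tested, since there is 1 library per stage.

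Of all UMIs of the 9 genes, 496 were in barcodes left out for having under 500 genes, and 2484 were in the cluster without a name, of whose 249 cells 247 came from E13.5. These entered no class level above.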

How the results depend on the processing

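The number of genes past 2-fold from E13.5 to E14.5, 6 of 8, was 3 with a marker gate on each cell, 2 over all cells of each library and 3 with the cluster mix held fixed. From E14.5 to E15.5 the 2 genes became 1 with the marker gate, with forkhead genes kept in clustering, over all cells and with a pseudocount of 5 CPM, and 0 with the mix fixed. From E13.5 to E15.5 the 6 became 3 over all cells. The share of all genes past 2-fold was taken only for the lineage and the fixed mix, as given above. Counts under the other settings have no such share beside them, and nothing is read from them about these genes. Among values past 2-fold, the signs that turned were those of Foxf1 with the mix fixed (-0.017 and -0.26), Foxc1 over all cells (0.28 and 0.21) and Smo beside Foxf1 without thinning (0.972-fold). Foxd1 and Foxp1, within 2-fold, turned to 0.45 and 0.55 over all cells from E13.5 to E15.5. Summing all cells mixes in the neural cells of E13.5, and the fixed mix leaves out 3 clusters. Apart from that, the cause was not tested. The class with the highest level moved with the settings for all 9 genes except Foxf2. Of the single values run, 238 log2 ratios, 121 CPM levels and 98 partner-gene ratios were within counting error of the main value, 55, 14 and 23 moved, and 4, 0 and 1, all past 2-fold in the main run, turned as given above. Values within 2-fold whose sign turned, such as those of Foxd1 and Foxp1, are not counted as turned here. No paired analysis was possible because each stage has 1 library, and for the same reason no replicate could be left out. Foxd2 rests on few UMIs in every library and Foxc2 and Foxl2 in the later ones, and depth limits what can be said of them there.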

Other observations

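Of 35 other forkhead genes, 17 reached 20 CPM in a class of some library, and 3 of those had their highest level in a lineage class: Foxa3, Foxk2 and Foxp4. Foxd3, known in neural crest and its glia, was at 0, 81.8 and 103 CPM in glial-like cells. The E13.5 value rests on 26 cells with 62868 UMIs, so its 0 is not read as absence. Foxj1, a factor of motile cilia, was highest in epithelial-like cells (67.9 CPM), as were Foxa1 (18.4 CPM) and Foxe1 (17.1 CPM), which is needed for the palate and thyroid. Foxo6 was highest in olfactory neuron-like cells (78.4 CPM), the class where Foxp1 was also highest, and Foxo1 in endothelial-like cells (197 CPM).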
